A study of Mus musculus with 9 samples.

Results

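H19, Igf2 and 8 further imprinted genes (Dlk1, Meg3, Rian, Cdkn1c, Plagl1, Peg3, Mest and Grb10) were followed through unloading and reloading of mouse gastrocnemius muscle. The list was given by gene symbol, and all 10 symbols were found among the 55487 genes of the count table. H19 was chosen by its CPM in these libraries, which were lower in each successive group, so its levels are given as a description, with no test. For the other members no measured value was given as the reason. Polyadenylated RNA was sequenced from 9 libraries of wild-type C57BL/6 muscle. The methods use more than a single substrain of C57BL/6, and the paper's results name C57BL/6J for these groups. The 4 Control libraries came from mice kept without unloading. The 2 Unloading libraries were taken at day 10 of hindlimb unloading, in which the tail is held up so that the hindlimbs bear no weight. The 3 Reloading libraries were taken at day 1 after weight bearing was resumed. The labels call the mice male, whereas the methods describe females for the unloading procedure, and the sources used here give no age for these mice. Each library is whole muscle, so fewer cells of a type and less RNA per cell cannot be told apart.

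Imprinted genes are read mainly from the copy inherited from a single parent, because DNA methylation laid down in egg or sperm differs between the parental copies. Many sit in clusters in which a long noncoding RNA is read from the maternal copy and a growth-promoting protein gene from the paternal copy, as in the H19 and Igf2 pair on mouse chromosome 7 and the Meg3, Rian and Dlk1 group on chromosome 12. Several act together on fetal growth and are turned down after birth, and H19 stays abundant in skeletal muscle longer than in most tissues. A count of reads over both parental copies does not show which copy they came from, so the values below are levels of both together.

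Depth ran from 9252443 to 19612101 read pairs counted per library. Fast-fibre and sarcomere markers (8 genes, among them Ckm, Acta1 and Ttn) summed to between 166010 and 179090 CPM in Control, so the libraries held the labelled tissue. CPM are counts per 1000000 of the library total, after TMM scaling, which evens out differences in RNA composition between libraries. Control replicate 2 and Reloading replicate 1 also held skin transcripts: 8 keratinocyte markers summed to up to 304.8 CPM in Control and 138.6 CPM in Reloading, against 4.19 to 4.26 CPM in Unloading. Markers of other cells moved with Reloading too. Sums over 10 endothelial markers were 204.8 to 240.9 CPM in Control, 207.5 to 211.5 in Unloading and 342.9 to 429.4 in Reloading. Sums over 8 macrophage markers were 78.6 to 98.7, 82.3 to 83.4 and 166.7 to 188.7 CPM in the same order, and over 8 Schwann cell markers 45.8 to 66.8, 49.8 to 60.9 and 104.8 to 140.8 CPM. Sums over 8 smooth muscle markers were 411.2 to 435.2, 440.6 to 473.4 and 478.4 to 519.0 CPM. Much of this sum was Rgs5, at 268, 323 and 264 CPM on average. From Unloading to Reloading Rgs5 was lower and the other 7 were higher, with a median log2 fold change of 0.87 over the 8. Mitochondrial genes took 9.36% to 10.6% of the counts in Control, 9.61% to 10.1% in Unloading and 6.49% to 6.75% in Reloading. The part of these cells and of the mitochondrial share in the results below was not tested.

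Counts were tested with edgeR's quasi-likelihood F-test in a single fit over all 9 libraries. An adjusted p is the Benjamini-Hochberg value over all 14851 genes that passed the filter on low counts, and a gene was called when it was under 0.05. Of the 10 members, 9 passed the filter and Dlk1 did not.

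The members spanned a wide range of levels. Per kilobase of exon, as CPM divided by exon length (RPKM), H19 stood at 169.7 ± 19.6 in Control (SD, n = 4). Cdkn1c came next at 7.34 ± 0.554 RPKM, followed by Grb10 at 3.79 ± 0.303 and Peg3 at 1.80 ± 0.0835. Below these came Meg3 at 0.917 ± 0.0672 RPKM and Mest at 0.609 ± 0.0529. Igf2 at 0.242 ± 0.0353, Rian at 0.236 ± 0.0108 and Plagl1 at 0.189 ± 0.0602 RPKM did not differ from one another beyond their spread. Dlk1 was lowest at 0.0679 ± 0.0134 RPKM. The place of Igf2 in this order depends on its length. Of its 5723 exon bases, 3694 (64.5%) lie under exons of other annotated genes, mostly a read-through transcript that received 0 counts, and pairs on shared bases can be dropped by the counting. Over the unshared bases alone, the Igf2 level was 0.683 ± 0.0996 RPKM, beside 0.793 ± 0.0688 for Mest and 10.6 ± 0.799 for Cdkn1c. These per-length levels do not move the comparisons between groups, which compare each gene with itself.

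**Figure D1:**
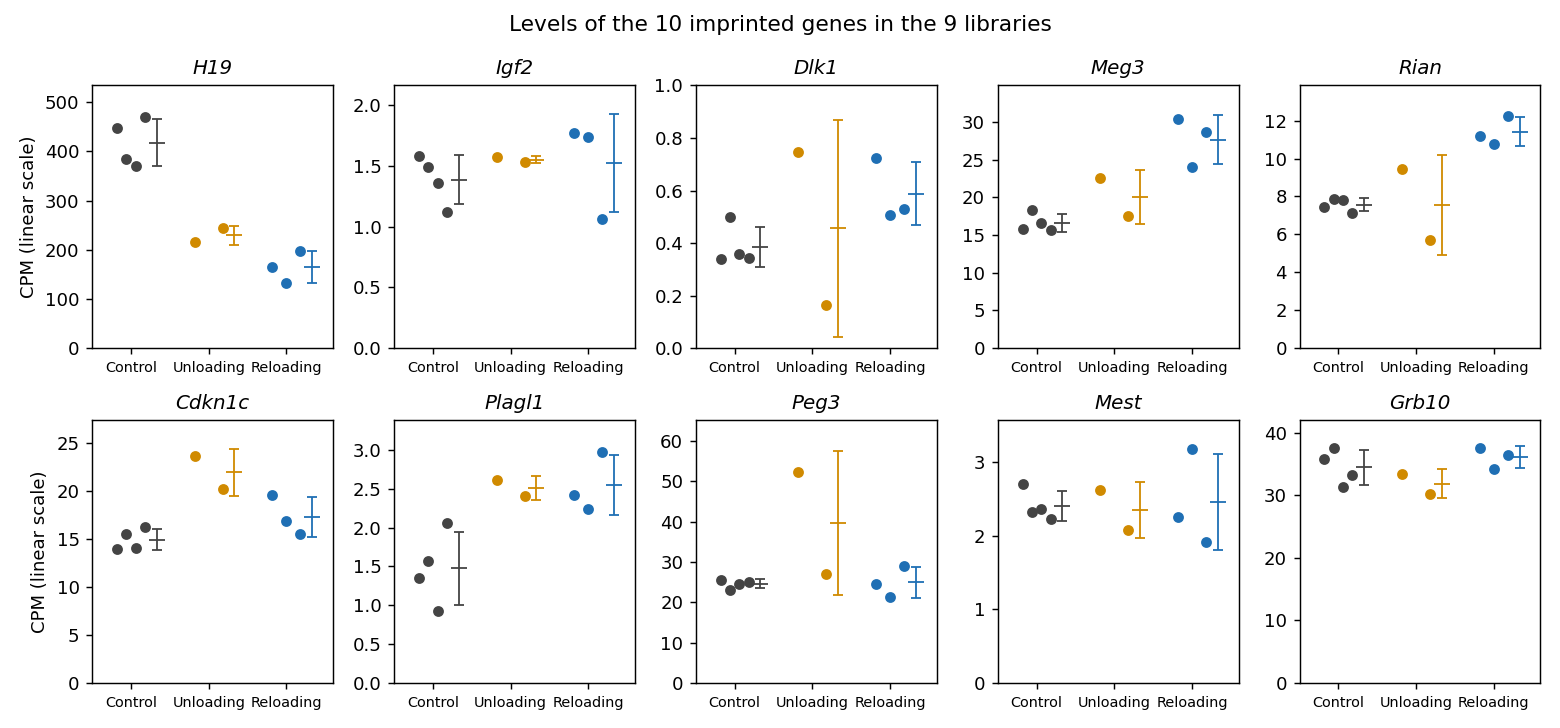
Level of each of the 10 imprinted genes in CPM (linear axis from 0) in the 9 libraries, with each point 1 library and the bar at the right of each group its mean and SD. H19 points run from 469 CPM down to 133 CPM with no overlap between groups, Meg3 and Rian points are highest in Reloading, and the Peg3 bar for Unloading is long because 1 library stands at 52.3 CPM.

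H19 is a maternally expressed long noncoding RNA of muscle and embryo. It lies on the minus strand of chromosome 7 (GRCm38, chr7:142575529-142578143) in 3 merged exons of 2460 bases. Its level was 447, 383, 370 and 469 CPM in the Control libraries. Both Unloading libraries were lower, at 216 and 243 CPM, and the Reloading libraries were lower again, at 164, 133 and 197 CPM. The group means were 417.5 ± 48.3 CPM (SD, n = 4), 229.5 ± 19.6 (n = 2) and 164.5 ± 31.9 (n = 3). No library of a group overlapped with the next group. The fitted log2 fold change was -0.86 ± 0.13 (SE) in Unloading against Control. From Unloading to Reloading it was -0.48 ± 0.14, and from Control to Reloading -1.34 ± 0.12. Every alternative processing kept these signs. Of all tested genes, 3.71% had every Control library above every Unloading library and these above every Reloading library, 551 genes in all with the ordering that put H19 on the list. The opposite ordering held for 2.53%, and no tested member had it.

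H19 carries within an exon the hairpin of a microRNA, miR-675, which is cut from the H19 transcript and has been tied to muscle differentiation. The 2 mature strands (RefSeq, GRCm38.p6) are shown because a mature microRNA acts by base pairing. Capitals mark the seed, bases 2 to 8, which pairs with target RNAs.
mmu-miR-675-5p (chr7:142577112-142577133, minus strand): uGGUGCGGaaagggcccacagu
mmu-miR-675-3p (chr7:142577078-142577099, minus strand): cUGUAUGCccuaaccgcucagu
The seeds of both strands differ. The annotated hairpin gene, which shares 84 bases with the H19 exon, had 0 counts in all libraries. Polyadenylated libraries do not hold mature microRNA, so no level of miR-675 can be read from these data.

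The tested genes whose levels followed H19 most closely over the 9 libraries were not on the lists of imprinted genes. Likeness was taken as the root mean square difference of log2 CPM centred on the Control mean, among 9872 genes. The nearest was Oxct1, the first enzyme of ketone body use in mitochondria, with a difference of 0.102 on the log2 scale. Its mean level was 415.7 CPM in Control, 212.8 in Unloading and 160.9 in Reloading. Golm1, a Golgi membrane protein, followed at 0.143 and Aldh4a1, a mitochondrial enzyme of proline breakdown, at 0.169. Gm4544 and Gm34455 completed the 5 nearest at 0.169 and 0.174. These genes lie on chromosomes 15, 13, 4, 15 and 17, none of them on chromosome 7 with H19. They were picked from 9872 genes for their closeness to H19, so that closeness is a description. Their chromosomes and absence from the lists were not tested against what any 5 genes would show.

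The nearest tested gene before H19 by coordinate was Nctc1, with 16.9 kb between the nearest ends of the genes. After H19 it was Gm33148 at 13.6 kb, which is on none of the lists and whose levels are not given here. Nctc1 is a noncoding RNA of muscle that shares the enhancer region of H19. It was at 138, 133, 138 and 144 CPM in Control and at 181 and 152 CPM in Unloading. Its Reloading libraries stood at 82.8, 73.8 and 114 CPM, below all others. Nctc1 was thus not called on unloading (log2 fold change 0.27 ± 0.13, adjusted p = 0.196), while it fell on reloading (-0.88 ± 0.13, adjusted p = 0.000145). Of the 13 fixed neighbours of the region, 8 were tested. Among these, Nctc1, Cd81 and Tssc4 are also on the list of other imprinted genes below and count there too. On unloading only Lsp1 was called, higher by 0.33 ± 0.10, and that call was lost in 11 of 19 alternatives. Reloading against Unloading had 4 lower and 1 higher, 62.5% of the 8, where 37.5% of all tested genes were called. The lower ones were Nctc1, the fast troponins Tnnt3 (-0.70 ± 0.07, adjusted p = 6.18e-06) and Tnni2 (-0.66 ± 0.07, adjusted p = 1.01e-05), and the mitochondrial ribosomal protein gene Mrpl23 (-0.26 ± 0.09, adjusted p = 0.0316), whose call was lost in 10 of 19 alternatives. The higher one was Cd81, a membrane tetraspanin (0.31 ± 0.09, adjusted p = 0.0184), lost in 4 of 19. The median of the 8 was -0.24 on the log2 scale, beside 0.03 over all tested genes. Tnnt3 and Tnni2 also belong to the sarcomere markers, whose sum was 119510 to 132070 CPM in Reloading against 169740 to 172520 CPM in Unloading.

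**Figure D2:**
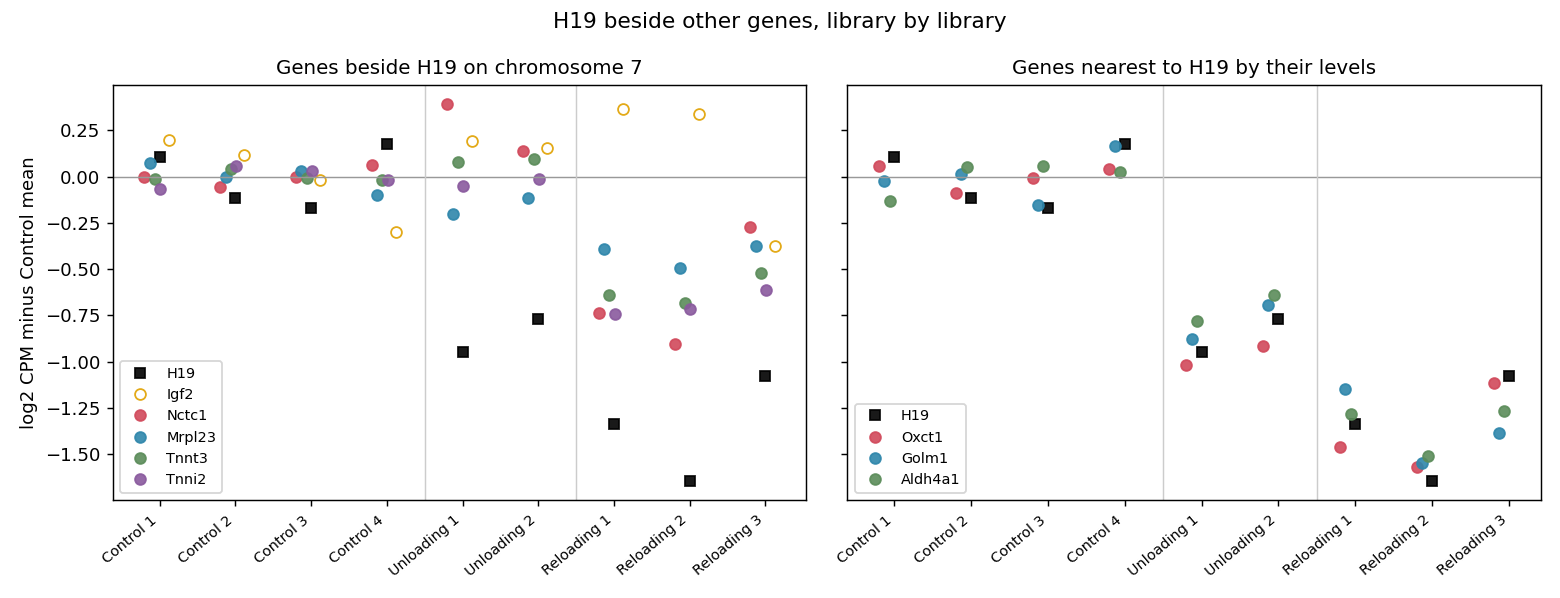
log2 CPM minus the Control mean in each of the 9 libraries, for H19 (black squares) with Igf2 and 4 genes beside it on chromosome 7 (left) and with 3 of the 5 genes nearest to it by level (right), each point 1 library. In the left panel H19 is already low in both Unloading libraries, where Nctc1, Tnnt3 and Tnni2 stay near or above their Control mean. In the right panel Oxct1, Golm1 and Aldh4a1 lie close to H19, for which they were picked.

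Igf2, a fetal growth factor read from the paternal copy (chr7:142650766-142666816, minus strand, GRCm38), lies 72.6 kb from H19, between the nearest ends of the genes, and was near the limit of detection. It had 14, 18, 19 and 13 counts in Control, 21 and 28 in Unloading and 22, 24 and 16 in Reloading. These were 1.58, 1.49, 1.36 and 1.12 CPM, 1.57 and 1.53 CPM, and 1.77, 1.74 and 1.06 CPM. The groups overlapped in every comparison. The log2 fold change was 0.17 ± 0.28 on unloading (adjusted p = 0.757) and 0.13 ± 0.26 for Reloading against Control (adjusted p = 0.714). With an SE of 0.26 to 0.29 on the log2 scale, a difference of that size was not detectable at this depth.

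Of 16 receptors, binding proteins and RNA-binding partners of IGF2, 14 were tested. On unloading 3 were higher and 1 lower, on reloading against Unloading 4 were higher and 2 lower, and against Control 7 were higher and 2 lower. These shares of 28.6%, 42.9% and 64.3% stand beside the 9.9%, 37.5% and 43.5% of all tested genes that were called. Of the 3 higher on unloading, the binding proteins Igfbp3 and Igfbp4 lost their calls in 11 and 4 of 19 alternatives. Igf2r, the imprinted receptor that clears IGF2, was at 74.0, 77.0, 78.2 and 77.5 CPM in Control, 81.4 and 71.1 in Unloading and 104, 101 and 103 in Reloading. It rose on reloading by 0.43 ± 0.08 (adjusted p = 0.000552), and all 3 Reloading libraries lay above the rest. Igf2r is also on the list of other imprinted genes below and counts there too. Igf1r, the receptor through which IGF2 signals, was higher in Unloading than in Control by 0.54 ± 0.10 (adjusted p = 0.00484; without Unloading replicate 1 it was 0.48, adjusted p = 0.106).

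Igf2bp2, an RNA-binding protein named for its binding to Igf2 mRNA, had the largest change of this list. It was at 1.01, 0.912, 0.643 and 1.37 CPM in Control and 1.35 and 0.874 CPM in Unloading. In Reloading it was at 12.5, 11.1 and 8.68 CPM. The rise on reloading was 3.30 ± 0.26 on the log2 scale (adjusted p = 4.04e-07). Igfbp7, a secreted binding protein made in vessel walls, rose by 1.24 ± 0.15 (adjusted p = 1.6e-05), together with the endothelial marker sums given above. Pappa, the protease that frees IGF from binding proteins, fell on unloading by 0.87 on the log2 scale (SE 0.20, adjusted p = 0.0129) and rose on reloading by 0.88 ± 0.20 (adjusted p = 0.00336). Its fall on unloading was lost without Unloading replicate 1 (-0.77, adjusted p = 0.185) and with the title numbers as a block (-0.84, adjusted p = 0.0513). Igfbp5, the most abundant binding protein here, was lower on reloading by 0.56 (adjusted p = 0.0123), a call that was lost without Unloading replicate 2 (-0.11, adjusted p = 0.515) and without Reloading replicate 2 (-0.49, adjusted p = 0.0525). It was also lost with library totals only (-0.31, adjusted p = 0.116) and in a robust fit (adjusted p = 0.0866).

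The Dlk1-Dio3 domain on chromosome 12 holds a run of maternally expressed noncoding RNAs, Meg3, Rian and Mirg, which carry many small RNAs, and the paternally expressed protein genes Dlk1, Rtl1 and Dio3. Meg3 and Rian were the members that rose on reloading. Meg3 (chr12:109541001-109571726, plus strand, 18089 exon bases) was at 15.8, 18.3, 16.6 and 15.7 CPM in Control. It was at 22.5 and 17.5 CPM in Unloading and at 30.4, 24.0 and 28.6 CPM in Reloading. Every Reloading library lay above every other library. Meg3 rose by 0.47 ± 0.13 on the log2 scale against Unloading (adjusted p = 0.00959) and by 0.73 ± 0.11 against Control (adjusted p = 7.84e-05). On unloading its log2 fold change was 0.26 ± 0.13 (adjusted p = 0.21), with overlapping groups.

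Rian (chr12:109603808-109661716, plus strand), a host of small nucleolar RNAs that starts 32.1 kb downstream of Meg3, was at 7.44, 7.88, 7.79 and 7.12 CPM in Control. It was at 9.43 and 5.68 CPM in Unloading and at 11.2, 10.8 and 12.3 CPM in Reloading. The Unloading libraries lay on both sides of Control, and all Reloading libraries lay above the rest. Rian rose by 0.62 ± 0.17 against Unloading (adjusted p = 0.0107) and by 0.59 ± 0.15 against Control (adjusted p = 0.00396), while the unloading comparison gave -0.03 ± 0.17 (adjusted p = 0.945). Meg3 and Rian kept their calls against Control in all 19 alternatives. Their calls against Unloading were lost without Unloading replicate 2, at 0.29 for Meg3 (adjusted p = 0.176) and 0.27 for Rian (adjusted p = 0.225). By likeness of course, Meg3 was number 190 of 9872 genes counted from Rian, and Rian was number 369 counted from Meg3.

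The further RNAs of the domain were scarce. Mirg, the next noncoding RNA downstream, was at 0.449 CPM on average in Control, 0.406 in Unloading and 0.778 in Reloading, with a log2 fold change of 0.90 ± 0.47 against Unloading (adjusted p = 0.144). Rtl1 and Dio3 were too low to be tested. Dlk1 (chr12:109452823-109463336), a transmembrane inhibitor of adipocyte formation that is high in fetal muscle, had 3, 6, 5 and 4 counts in Control. It had 10 and 3 counts in Unloading and 9, 7 and 8 in Reloading. Its CPM in Reloading, 0.725, 0.506 and 0.530, lay above the Control values of 0.338 to 0.497, while the Unloading values of 0.749 and 0.164 lay on both sides. Fitted without the filter on low counts, Dlk1 gave 0.59 ± 0.49 for Reloading against Control (adjusted p = 0.545), so no difference was detectable at this depth.

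Meg3 and Rian also hold microRNAs. The mature strands of miR-770, within a Meg3 exon, and of miR-370, within Rian, are shown as the small RNAs of the 2 members that rose together, with the seed in capitals (RefSeq, GRCm38.p6, all on the plus strand of chromosome 12).
mmu-miR-770-5p (chr12:109563710-109563731): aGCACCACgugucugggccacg
mmu-miR-770-3p (chr12:109563744-109563765): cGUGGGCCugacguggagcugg
mmu-miR-370-5p (chr12:109618270-109618289): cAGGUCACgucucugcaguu
mmu-miR-370-3p (chr12:109618305-109618326): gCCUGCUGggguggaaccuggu
None of these 4 seeds equals another or those of miR-675. The libraries do not measure the mature strands.

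RefSeq promoter windows, 250 bases before to 50 after a start, matched 8 of the 10 members, all but H19 and Cdkn1c. The Meg3 window is shown because Meg3 and Rian rose together in Reloading, with motifs in capitals. These motifs were chosen after the sequences had been read. The first run of capitals is TGACGTCA, the cAMP response element, which starts 57 bases before the start site, and the second is formed by 2 overlapping matches to TATAAA, the core of the TATA box, on opposite strands.
Meg3 promoter (GRCm38.p6, chr12:109540746-109541045, plus strand): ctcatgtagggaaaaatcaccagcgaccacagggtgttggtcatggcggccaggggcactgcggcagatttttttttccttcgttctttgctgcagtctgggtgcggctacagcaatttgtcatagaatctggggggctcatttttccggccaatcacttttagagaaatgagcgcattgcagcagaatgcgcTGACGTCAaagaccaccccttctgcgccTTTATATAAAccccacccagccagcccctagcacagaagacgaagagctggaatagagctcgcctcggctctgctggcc
Searched on both strands, TGACGTCA was in 1.79% and TATAAA in 13.6% of all 32851 promoter windows. The 8 members had 15 windows, of which 2 held TGACGTCA (Meg3 and Peg3) and 1 held TATAAA (Meg3). A match is a description of letters and not a site in use.

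Cdkn1c and Peg3 were the members called on unloading. Cdkn1c (chr7:143458339-143461050, minus strand) encodes p57, a maternally expressed inhibitor of cyclin-dependent kinases. It was at 14.0, 15.5, 14.1 and 16.3 CPM in Control, 23.7 and 20.2 in Unloading and 19.6, 16.9 and 15.5 in Reloading. Both Unloading libraries lay above all others. Cdkn1c rose on unloading by 0.55 ± 0.12 (adjusted p = 0.00912), a call that was lost without Unloading replicate 1 (0.44, adjusted p = 0.185). On reloading it fell by 0.34 on the log2 scale (SE 0.12, adjusted p = 0.0383). With the replicate number as a block the fall was -0.29 (adjusted p = 0.0894) by the numbers in the titles and -0.27 (adjusted p = 0.186) by those in the descriptions. It was also lost without Unloading replicate 1 (-0.23, adjusted p = 0.284), Reloading replicate 2 (-0.33, adjusted p = 0.0892) or Reloading replicate 3 (-0.26, adjusted p = 0.135), under DESeq2 and with library totals only. Reloading against Control gave 0.21 ± 0.11 (adjusted p = 0.134). Of its exon bases, 30.7% lie opposite another annotated gene, which had 0 counts.

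Kcnq1ot1, the paternally expressed noncoding RNA of the Cdkn1c domain that silences its neighbours in cis, took another course. It was at 4.51, 3.48, 3.64 and 4.38 CPM in Control, 4.64 and 4.54 in Unloading and 2.74, 3.04 and 2.72 in Reloading. Its Reloading values were the lowest of all, and it fell by 0.69 on the log2 scale against Unloading (SE 0.18, adjusted p = 0.0075), lost in 1 of 19 alternatives. Its lower level against Control (-0.49, adjusted p = 0.0243) was lost in 10 of 19 alternatives. Nap1l4, a histone chaperone gene 52.5 kb past Cdkn1c, was at 249.1, 232.1 and 221.0 CPM on average in the 3 groups, with -0.17 ± 0.06 for Reloading against Control (adjusted p = 0.0365), a call that was lost in 8 of 19 alternatives, with a turn of sign under library totals only.

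Peg3, a paternally expressed zinc finger gene active in muscle stem cells and mesenchyme (chr7:6703892-6730431, minus strand), was steady in Control at 25.6, 23.0, 24.7 and 25.1 CPM. The Unloading libraries were far apart, at 52.3 CPM in replicate 1 and 27.0 CPM in replicate 2. Reloading was at 24.4, 21.4 and 29.1 CPM. The fit gave a rise of 0.68 ± 0.18 on unloading (adjusted p = 0.0308) and a fall of 0.65 on reloading (SE 0.19, adjusted p = 0.016). Both rest on Unloading replicate 1. Without it the values were 0.14 (adjusted p = 0.709) and -0.12 (adjusted p = 0.59). The unloading call was also lost without Control replicate 2 (0.65, adjusted p = 0.0539) or Control replicate 3 (0.68, adjusted p = 0.0563), with both skin-bearing libraries left out (0.65, adjusted p = 0.0668) and in a robust fit (adjusted p = 0.149). The reloading call was lost without Reloading replicate 2 (-0.56, adjusted p = 0.0628), with library totals only (-0.41, adjusted p = 0.107) and in a robust fit (adjusted p = 0.0996). Unloading replicate 2 overlapped with the Reloading libraries.

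Zim1, the maternally expressed neighbour 7.4 kb away, had means of 3.86, 5.20 and 4.38 CPM and no call, with 0.44 ± 0.20 on unloading (adjusted p = 0.169). Usp29, which begins 147 bases past the Peg3 start on the other strand, was too low to be tested. The Peg3 promoter upstream of the start is shown as the other window with TGACGTCA, here 178 bases before the start, in capitals. The first capitals are GGGGCCCC, the core site of the PLAGL1 protein, which 1.08% of all windows hold and which no other member's window held. It starts 201 bases before the start.
Peg3 promoter (GRCm38.p6, chr7:6730420-6730669, minus strand): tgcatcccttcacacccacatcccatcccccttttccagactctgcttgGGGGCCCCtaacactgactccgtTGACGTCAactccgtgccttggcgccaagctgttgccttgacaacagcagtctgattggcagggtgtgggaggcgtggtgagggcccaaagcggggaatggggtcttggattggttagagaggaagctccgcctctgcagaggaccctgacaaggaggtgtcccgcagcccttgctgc

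Plagl1 (chr10:13060504-13131694, plus strand) encodes a paternally expressed zinc finger factor known as a regulator of other imprinted genes, H19 and Igf2 among them. It was low, at 12, 19, 13 and 24 counts or 1.35, 1.58, 0.929 and 2.06 CPM in Control. It was at 2.62 and 2.40 CPM in Unloading and 2.42, 2.24 and 2.98 CPM in Reloading. All 5 libraries of the latter groups lay above all 4 Control libraries. Against Control the log2 fold change was 0.77 ± 0.28 in Unloading (adjusted p = 0.0916) and 0.80 ± 0.25 in Reloading (adjusted p = 0.0184), so Plagl1 was called in Reloading alone, and the Unloading and Reloading groups differed by 0.03 ± 0.27 (adjusted p = 0.943). The Reloading call was lost under DESeq2 (adjusted p = 0.0745), without Control replicate 3 (0.59, adjusted p = 0.0659) and without Reloading replicate 3 (0.66, adjusted p = 0.082). Without Control replicate 4 the Unloading value became a call (0.98, adjusted p = 0.0426).

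Mest and Grb10 were not called in any comparison in the main fit. Mest (chr6:30723547-30748465), a paternally expressed gene of a hydrolase-like protein, was at 2.71, 2.32, 2.36 and 2.23 CPM in Control, 2.62 and 2.08 in Unloading and 2.26, 3.18 and 1.92 in Reloading. Its log2 fold changes ran from -0.04 to 0.07 with SE of 0.22 to 0.25, and all groups overlapped. Of its exon bases, 23.1% lie opposite Copg2, which was read at 16.9 CPM in Control, and without strand those bases cannot be assigned. Grb10 (chr11:11930508-12038683), an adaptor that dampens insulin and IGF receptor signalling, was at 35.7, 37.6, 31.3 and 33.2 CPM in Control, 33.5 and 30.2 in Unloading and 37.6, 34.1 and 36.4 in Reloading. Its largest change was 0.18 ± 0.10 on reloading (adjusted p = 0.148), where the groups did not overlap. With the description numbers as a block this was 0.30 (adjusted p = 0.0358). With library totals only Grb10 was called in both Reloading comparisons, at 0.43 against Unloading (adjusted p = 0.00258) and 0.31 against Control (adjusted p = 0.00561).

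**Figure D3:**
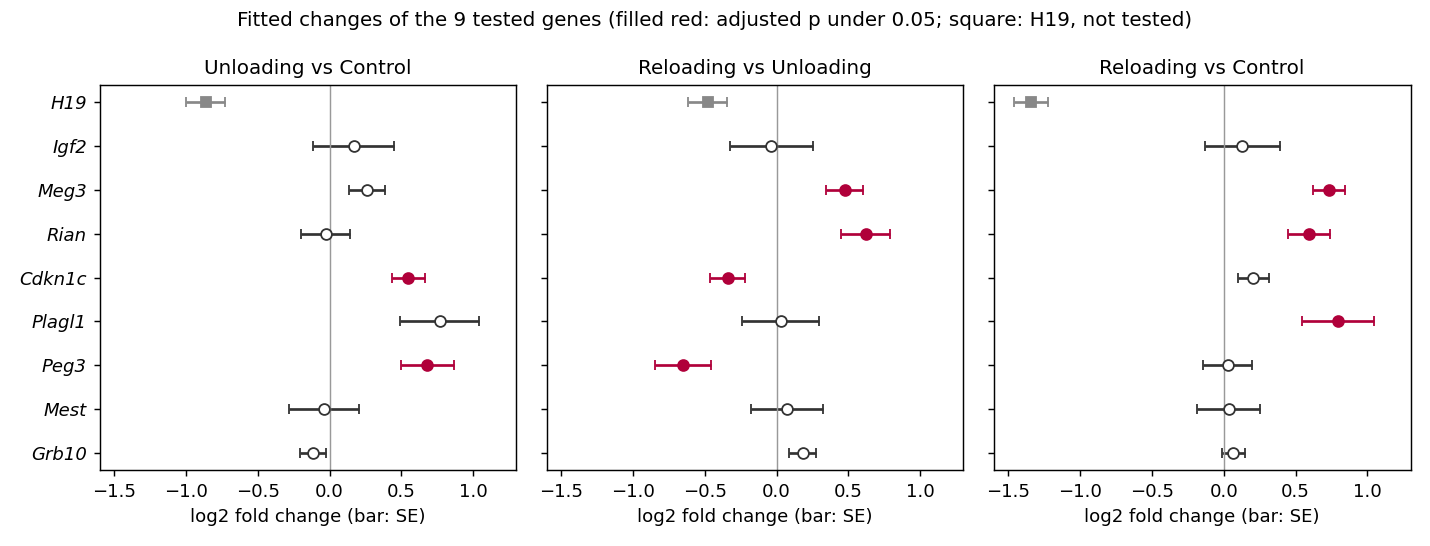
Fitted log2 fold change with its SE for the 9 tested members in the 3 comparisons, with filled red circles for an adjusted p under 0.05, open circles for others and a grey square for H19, which was not tested. H19 lies left of 0 in each panel, Meg3 and Rian lie right of 0 in both Reloading panels, and Cdkn1c and Peg3 change side between the first panel and the second.

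Over the list, 8 members had a test. On unloading 2 were called, both higher (Cdkn1c and Peg3), where 9.9% of all tested genes were called, 4.4% higher and 5.5% lower. On reloading against Unloading 4 were called, 2 higher (Meg3 and Rian) and 2 lower (Cdkn1c and Peg3), where 37.5% of all tested genes were called, 18.5% higher and 19% lower. Against Control 3 were called, all higher (Meg3, Rian and Plagl1), where 43.5% were called, 22.1% higher and 21.3% lower. The members' shares were thus 25%, 50% and 37.5% of 8, the last 2 near those of all genes. The split on reloading depends on the scaling. With library totals only, 3 members were called against Unloading, all higher (Meg3, Rian and Grb10), and 5 against Control, all higher (Meg3, Rian, Cdkn1c, Plagl1 and Grb10). All tested genes shift upward with that scaling, to medians of 0.27 and 0.25 on the log2 scale. Of all tested genes, 6340 and 7512 were then called, against 5562 and 6456 under TMM. Leaving out H19, whose ordering put it on the list, the groups did not overlap on unloading for Cdkn1c, Plagl1 and Peg3, which were higher, where 16.4% of all tested genes were higher and 16.6% lower without overlap. From Unloading to Reloading this held for Cdkn1c, lower, and for Meg3, Rian and Grb10, higher, where 31% of all tested genes were higher and 29% lower. From Control to Reloading it held for Meg3, Rian and Plagl1, all higher, where the shares were 24.2% and 22.7%. Dlk1, which did not pass the filter and is outside these shares, was also higher there without overlap, on 7 to 9 counts against 3 to 6. Without Unloading replicate 1 neither Cdkn1c (0.44) nor Peg3 (0.14) kept its call on unloading, and most calls over all tested genes were lost too. On reloading the members' count fell without either Unloading replicate, as the count over all tested genes did. The members' count was 2 without Reloading replicate 2, where 4563 genes were called, against 5562 in the main fit. On unloading it was 1 without Control replicate 2 or Control replicate 3, where 1120 and 949 genes were called, against 1470.

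Called members were of either parental origin. Of the maternally expressed ones, H19 was lower in Unloading and Reloading than in Control, Meg3 and Rian rose on reloading, Cdkn1c rose on unloading and Grb10 had no call. Of the paternally expressed ones, Peg3 and Plagl1 were higher in 1 comparison each with Control and Igf2 and Mest had no call. Summed over the 5 maternally expressed members, the level was 439.7 to 541.8 CPM in Control, 304.8 to 317.0 in Unloading and 218.6 to 289.4 in Reloading, most of it H19. The sum over the 5 paternally expressed members was 28.8 to 31.6, 33.2 to 59.9 and 29.1 to 35.6 CPM.

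The 2 Unloading libraries differed in this list. In 9 of 10 members, all but H19, the level was higher in Unloading replicate 1 than in replicate 2, while 50.3% of all tested genes were. The ratio was 1.94 for Peg3, 1.66 for Rian and 1.29 for Meg3, and 4.57 for Dlk1 on 10 and 3 counts. It was smaller for the others, at 1.26 for Mest, 1.17 for Cdkn1c, 1.11 for Grb10, 1.09 for Plagl1 and 1.03 for Igf2. These ratios between single libraries were not tested. Fibro-adipogenic markers, 12 genes of the connective tissue cells of muscle, summed to 504.8 to 580.3 CPM in Control, 638.5 to 653.6 in Unloading and 551.5 to 571.2 in Reloading. Without Dcn, which is on the list of other imprinted genes below and makes up much of that sum, they were 276.9 to 339.1, 291.3 to 317.3 and 313.4 to 329.5 CPM. These ranges overlap. Satellite cell markers, 10 genes of muscle stem cells, summed to 58.8 to 74.2, 65.2 to 76.2 and 71.5 to 74.1 CPM.

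A list of 66 other imprinted genes, or genes in imprinted clusters, was followed in the same fit, without examining whether each is imprinted in muscle. Of these, 40 were tested, 25 were too low and 1 symbol (Nespas) was not matched. On unloading 4 were higher and 2 lower. On reloading against Unloading 5 were higher and 13 lower, and against Control 6 were higher and 11 lower. These called shares (15%, 45% and 42.5%) stand beside the 9.9%, 37.5% and 43.5% of all tested genes. Their medians were 0.07, -0.07 and 0.15 on the log2 scale, beside -0.00, 0.03 and 0.01 over all tested genes. The split on reloading depends on the scaling. With library totals only, 13 were higher and 8 lower against Unloading and 18 higher and 6 lower against Control, and the median of all tested genes was then 0.27 and 0.25. Of all tested genes, 6340 and 7512 were called with that scaling.

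The genes that were higher after unloading included Dcn, the matrix proteoglycan decorin. It was at 225, 241, 213 and 230 CPM in Control, 362 and 321 in Unloading and 242, 257 and 229 in Reloading. It rose by 0.59 ± 0.08 on unloading (adjusted p = 0.000545) and fell by 0.49 on reloading (SE 0.08, adjusted p = 0.000278). Peg13, a noncoding RNA that lies within Trappc9, had the same course, at 35.3, 53.8 and 34.5 CPM on average. Its rise on unloading was 0.61 ± 0.14 (adjusted p = 0.0132) and its fall on reloading 0.63 on the log2 scale (SE 0.15, adjusted p = 0.00335). Asb4, a ubiquitin ligase adaptor, rose by 0.58 ± 0.11 (adjusted p = 0.00495) and Zrsr1, a splicing factor gene within Commd1, by 0.38 ± 0.11 (adjusted p = 0.0411), lost in 7 of 19 alternatives. Without Unloading replicate 1 the rises of Peg13 (0.46) and Asb4 (0.55) lost their calls, as most of all genes called on unloading did.

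The lower ones on unloading were Pon3 and Slc38a4. Pon3, a paraoxonase, was at 27.4, 28.3, 27.2 and 32.4 CPM in Control, 19.8 and 21.5 in Unloading and 12.7, 15.4 and 14.5 in Reloading. Like H19 it did not overlap between any groups, and it fell by 0.48 on unloading (SE 0.11, adjusted p = 0.0124), by 0.54 on reloading (SE 0.11, adjusted p = 0.0018) and by 1.02 in all (SE 0.10, adjusted p = 1.25e-06). The first of these was lost without Unloading replicate 1 (-0.42, adjusted p = 0.185). Slc38a4, an amino acid transporter, fell by 0.38 on unloading (adjusted p = 0.0389), lost in 8 of 19 alternatives.

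On reloading Snhg14, Snrpn and Ube3a of the Prader-Willi and Angelman region of chromosome 7 fell, while Ndn (0.06, adjusted p = 0.785) and Atp10a (0.53, adjusted p = 0.0568) of the same region were not called. Snhg14, the long host RNA of its small nucleolar RNAs, was at 8.21 to 11.1 CPM in Control, 11.8 and 10.7 in Unloading and 3.63, 4.27 and 4.50 in Reloading. All Reloading libraries lay far below the rest, and it fell by 1.44 on the log2 scale (SE 0.16, adjusted p = 8.18e-06). Snrpn, a spliceosome protein gene of the same unit, fell by 0.79 (SE 0.11, adjusted p = 6.21e-05) and Ube3a, the ubiquitin ligase on the other strand, by 0.76 (SE 0.11, adjusted p = 0.000103). Counting without strand leaves the 3 partly entangled: 7.73% of the exon bases of Snhg14 and 27.3% of those of Ube3a are shared with other genes, and 34.1% of those of Snrpn. Against Control the values were -1.22, -0.97 and -0.68, and none of these calls was lost in any of the 19 alternatives.

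Those that rose on reloading included Gatm, which makes the creatine precursor, by 0.84 ± 0.23 (adjusted p = 0.0094), lost without Unloading replicate 2 (0.51, adjusted p = 0.172). Peg10, a retrotransposon-derived gene, was at 1.24, 1.24, 1.64 and 1.72 CPM in Control, 3.44 and 2.08 in Unloading and 4.92, 5.35 and 3.11 in Reloading. Against Control it rose by 1.58 ± 0.25 in Reloading (adjusted p = 0.000131), while its step from Unloading (0.71 ± 0.27, adjusted p = 0.0499) was lost in 11 of 19 alternatives.

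**Figure D4:**
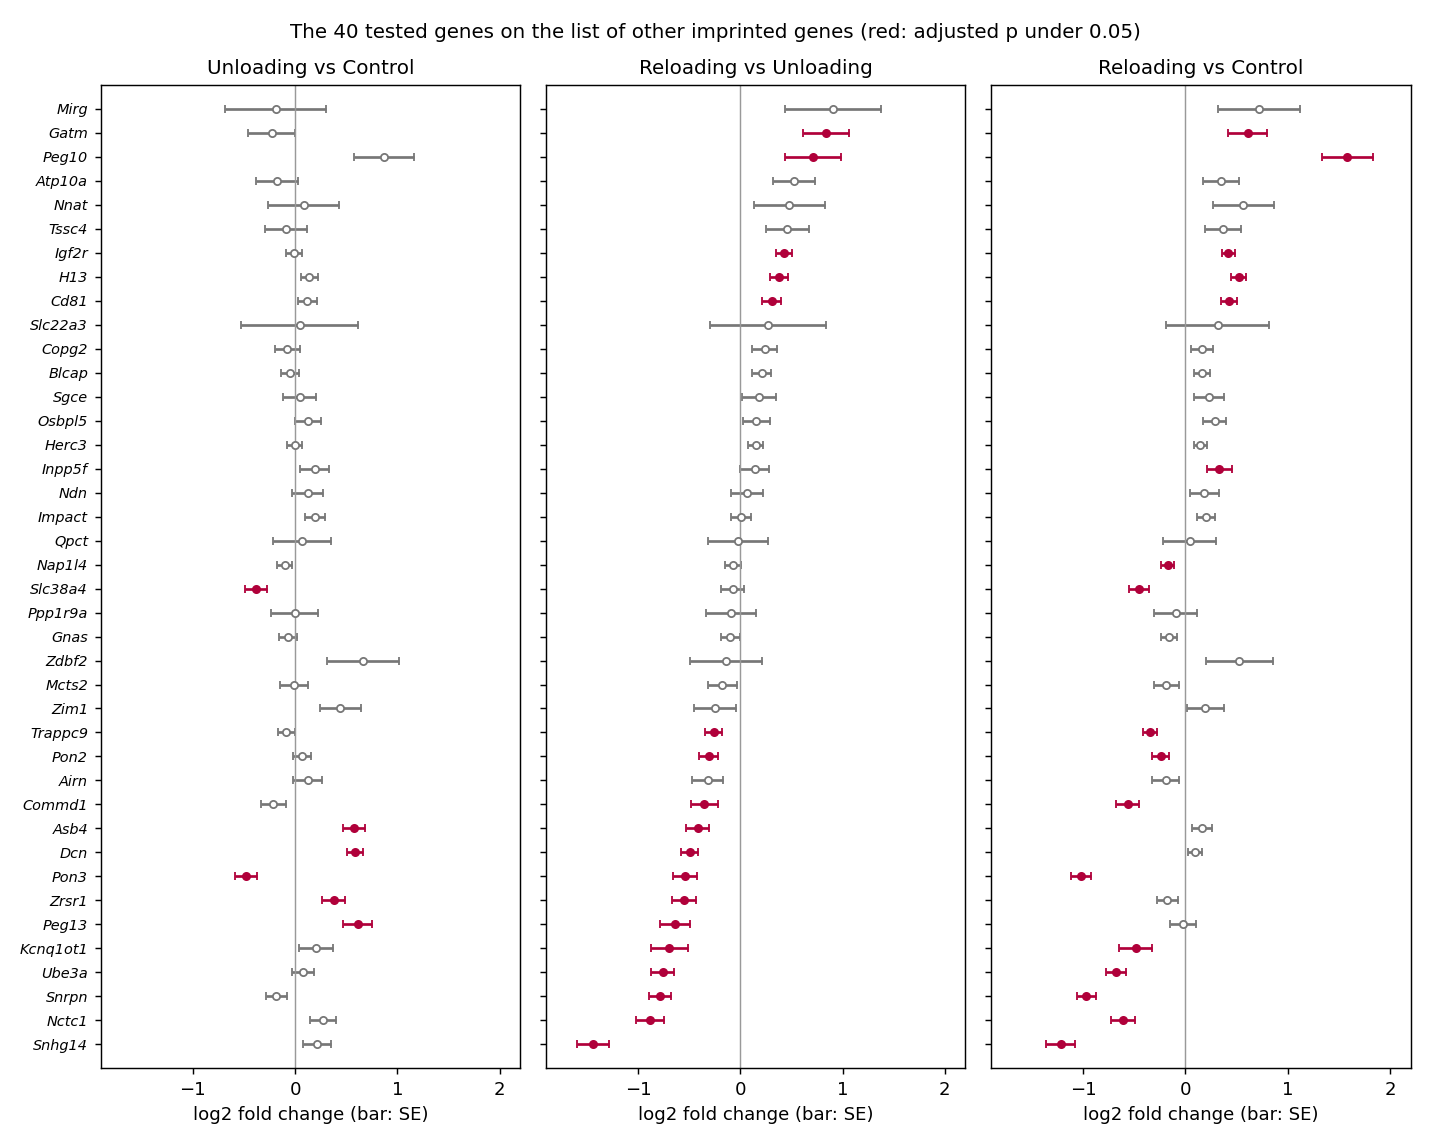
Fitted log2 fold change with its SE for the 40 tested genes on the list of other imprinted genes in the 3 comparisons, ordered by Reloading against Unloading, with red for an adjusted p under 0.05. Of the red points, 6 are in the first panel, 18 in the second and 17 in the third, with Snhg14 lowest in the second and Peg10 highest in the third.

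Genes that set or keep imprints were also counted. Of 18 fixed genes, 17 were tested, with 1 higher on unloading, 3 higher and 5 lower on reloading against Unloading, and 3 higher and 2 lower against Control. These shares of 5.88%, 47.1% and 29.4% stand beside the 9.9%, 37.5% and 43.5% of all tested genes. Zfp445, a zinc finger protein that holds methylation at imprinted loci, was at 61.5, 81.8 and 52.3 CPM on average. It rose by 0.41 ± 0.10 on unloading (adjusted p = 0.0207; without Unloading replicate 1 it was 0.21, adjusted p = 0.407; with both skin-bearing libraries left out, 0.38, adjusted p = 0.0527) and fell by 0.64 on reloading (SE 0.11, adjusted p = 0.000299). Dnmt1, the maintenance methyltransferase, was at 12.2, 10.0, 10.9 and 11.9 CPM in Control, 8.98 and 10.3 in Unloading and 21.0, 17.1 and 15.2 in Reloading. It rose by 0.87 ± 0.15 on reloading (adjusted p = 0.000302). The other 2 higher on reloading were scarce. Zfp57, at 0.216, 0.388 and 1.01 CPM on average, rose by 1.37 ± 0.49 (adjusted p = 0.0379), lost in 6 of 17 alternatives. Against Control, Zfp57 was higher in Reloading by 2.17 ± 0.47 (adjusted p = 0.00169). Uhrf1, at 0.522, 0.259 and 0.903 CPM, rose by 1.79 ± 0.56 (adjusted p = 0.0215), lost in 5 of 19. Ctcf, the insulator protein that parts H19 from Igf2, was not called in any comparison, at 45.2, 48.4 and 42.5 CPM.

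Of 12 genes tied to H19 or miR-675 in earlier work, 9 were tested. On unloading 1 was higher, on reloading against Unloading 2, and against Control 4, with none lower. The shares of 11.1%, 22.2% and 44.4% were near or below those of all tested genes (9.9%, 37.5% and 43.5%). Of the 2 higher on reloading, Khsrp lost its call against Unloading in 16 of 19 alternatives. Hmga1, a chromatin protein gene, was at 22.7, 25.8, 27.2 and 23.1 CPM in Control, 23.8 and 26.6 in Unloading and 44.6, 49.0 and 44.6 in Reloading, and rose by 0.87 ± 0.10 on reloading (adjusted p = 1.18e-05). Smad5, a mediator of BMP signals and a described target of miR-675, rose by 0.34 ± 0.09 on unloading (adjusted p = 0.0239; without Unloading replicate 1 it was 0.28, adjusted p = 0.278; without Control replicate 2, 0.30, adjusted p = 0.0591). Against Control in Reloading, Smad5 was higher by 0.42 ± 0.08 (adjusted p = 0.000501), Smad1 by 0.56 ± 0.12 (adjusted p = 0.00179) and Khsrp, an RNA decay factor that binds H19, by 0.45 ± 0.07 (adjusted p = 8e-05).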

How the data were processed

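Per the labels, RNA was selected by poly-A and made into libraries with an Illumina TruSeq kit. The authors aligned reads with STAR 2.7.3a to GRCm38.p6 and counted read pairs with featureCounts 2.0.3, without strand, on the Ensembl annotation. The deposited table holds raw counts per gene, with no normalization. The study's methods describe single reads, whereas the labels and the table's header describe pairs. From the authors' DESeq2 tables only gene symbols and biotypes were taken, and their fold changes, p-values and mean signal were not used.

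Counts were tested with edgeR 4.0.16 in R 4.3.3 (filterByExpr, minimum count 10 and minimum total 15, TMM, quasi-likelihood F-test, two-sided, group as the only term), which kept 14851 genes. log2 CPM took a prior count of 2, and SE came from the F statistic. The scripts were tested on simulated data. DESeq2 1.42.0, other scalings and filters, a robust fit, pairwise fits, replicate blocks and leaving out libraries were tried as alternatives. The members and lists were chosen with earlier results of these data known. Named outside the members were, per list and comparison, at most the 6 called genes with the largest change, plus some near neighbours of a member. Rtl1, Dio3, Ctcf, Copg2, Ndn and Atp10a were added after their values were seen. The labels number the replicates and do not state separate mice, so p-values measure the spread between these libraries, which may be technical. Numbers in the titles did not pair the libraries (correlations of -0.201 to 0.0752 between same-numbered ones of different groups). Numbers in the descriptions correlated at 0.361, 0.143 and 0.155 for the 3 Control and Reloading pairs. The first is Control replicate 2 with Reloading replicate 1, the 2 libraries with skin transcripts, whose part in it was not tested. Control and Reloading libraries of unlike numbers reached 0.117. These values do not settle whether the description numbers pair the libraries. As a block in Reloading against Control, the description numbers changed no member's call. The precision of low genes is limited by their counts.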

Additional observations from a re-analysis of the deposited data

Results flagged for a closer look

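In 1 of 10 members, the highest or lowest Control library stood apart from the other 3 by more than Dixon's 95% critical value of 0.829 for 4 samples. Dlk1 was at 0.497 CPM in Control replicate 2, a gap of 0.881 of the range, on 6 counts against 3 to 5 in the other Control libraries. Chance alone flags about 1 in 20 groups. Control replicate 2 is also 1 of the 2 libraries with skin transcripts, whose part in this value was not tested. Groups of 2 and 3 libraries were not examined in this way.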

How the results depend on the processing

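Of 513 refits of the 27 member fold changes, 468 counted as unchanged, 22 lost a call, 5 gained one and 18 changed sign, the last all for values without a call. Unchanged means the same direction and side of the threshold. For H19, which had no test, it means the same direction and a shift within the larger group SD. The number of members called on unloading was 2, and 1 in a robust fit, 1 with both skin-bearing libraries left out and 0 to 3 with a library left out. On reloading against Unloading it was 4, and 2 to 4 with a library left out. Reloading against Control had 3, and 5 with library totals only, which shifts the median of all tested genes to 0.274 and 0.252 in the Reloading comparisons. The other imprinted genes called on unloading, 6, were 1 to 7 with a library left out.

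The changes of sign were -0.081 for Igf2 on unloading and 0.098 on reloading with a block of the title numbers, 0.21 for Igf2 on reloading with library totals only and 0.19 with a block of the description numbers, 0.0089 for Rian on unloading with no filter, -0.0016 for Plagl1 on reloading under DESeq2 and -0.012 for Mest against Control with the title block. With a library left out, the range was -0.16 to 0.18 for Igf2 on reloading, -0.41 to 0.32 for Rian on unloading, -0.10 to 0.11 for Plagl1 on reloading and -0.098 to 0.12 for Peg3 in Reloading against Control. For Mest it was -0.20 to 0.13 on unloading, -0.17 to 0.23 on reloading and -0.20 to 0.19 against Control. Among named genes that are no members, Mirg on unloading ranged from -0.36 to 0.044 with a library left out, Nap1l4 became 0.18 on reloading and 0.067 against Control with library totals only, and Zim1 0.00033 on reloading with the description block. The causes were not tested.

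With the replicate number as a block, the fall of Cdkn1c on reloading lost its call (-0.29 and -0.27) and Grb10 gained one (0.30). No other member's call changed, and the count against Control stayed at 3. H19 means moved by less than 1 SD under every alternative that rescales or leaves out libraries. Low counts limit Igf2, Dlk1, Plagl1 and Mest. With 2 Unloading libraries, 1 library decides several calls, and with either left out the lone one is assumed to vary like the other groups. In comparisons with Unloading, fewer calls were then made over all tested genes too. A call lost that way is thus not particular to the genes named here.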
